A study of Mus musculus with 2 samples.

Results

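The genes described here are 10 that restrain growth signalling or mark resting cells: the Sestrins Sesn1, Sesn2 and Sesn3, Ddit4, Pik3ip1, Txnip, Foxo1, Foxo3, Klf2 and Ccng2. They were taken by gene symbol from the deposited table, with 1 probe set each, out of 19935 genes that had a probe set assigned to a single gene. Their choice was made with differences between these same arrays in view, so their counts and medians are descriptions. Expression was read on 2 arrays, from dendritic cells (DCs) that flow cytometry had isolated from spleens of C57BL/6 mice of wild-type genotype at the age of 8 weeks. The cells of 1 array had been cultured with IL-27, a cytokine of the IL-12 family, and those of the other with vehicle in medium. Both groups share strain, genotype, age and tissue. The number of mice or cultures behind each array and the meaning of "ON", which stands as the length of treatment, are not given in the labels. The comparison addresses how IL-27 changes transcript levels in DCs, and with 1 array per group no difference has a replicate check, a p-value or an error.

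Cells grow when nutrients and growth factors activate the kinase mTORC1, which is switched on at the lysosome by amino acids and through PI3K and AKT by receptors at the cell surface. Sestrins hold back the amino acid branch by binding the GATOR2 complex, and Sestrin 2 is released from it by leucine. The protein of Ddit4, REDD1, acts through the TSC complex, and the protein of Pik3ip1 binds the catalytic subunit of PI3K. AKT phosphorylates FOXO transcription factors and keeps them out of the nucleus, so that FOXO target genes, among them Sesn1, Sesn3, Ccng2, Txnip and Klf2 in several cell types, are more active when growth signals are weak. In DCs, FOXO3 is known for limiting the production of inflammatory cytokines, and activation through Toll-like receptors is known to shift the cells towards mTORC1 signalling and glycolysis.

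Values are intensities on a linear scale in arbitrary units, and differences are log2 of IL-27 minus log2 of vehicle. A gene was counted as lower or higher when the difference reached 1, that is 2-fold, and its brighter array reached the median of all values, an intensity of 96.2. By this rule 7.36% of the 19935 genes were lower and 0.848% were higher, 1468 and 169 genes, so that higher genes made up 10.3% of those counted. That share was 20.6% after quantile normalization and 26.2% after removal of the trend of the difference with level. The median difference was 0.04 over all genes and -0.34 over the 11140 genes that reached the level minimum, and each gene is therefore set beside the 1000 genes nearest to it in mean level. Olfactory receptor genes, 1027 in all and not expected in DCs, had 95th percentiles of 129 on the IL-27 array and 77.3 on the vehicle array. These are called the olfactory limits, and a gene whose dimmer value did not exceed the limit of that array has its fold computed from the limit, written "at least". That bound holds for the intensities as deposited only. Ccng2, for example, differed by -0.91 at its bound and by -0.78 with the level trend removed. For each list below, lower, higher and neither are counted over the members that reached the level minimum, and the median is over all measured members. The 7.36% and 0.848% are over all genes, also those under that level, so they understate the shares among genes that reached it. Among the 1000 genes nearest in level to each of the 10 genes, from 13.3% (Txnip) to 21.9% (Sesn3) were at least 2-fold lower. The share at least 2-fold higher ran from 0.8% (Pik3ip1 and Ccng2) to 2.5% (Txnip). The 7.36% is thus too low a background for the list counts below. The intensities of different genes are not set against each other, since probe sets differ in how strongly they bind.

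By the size rule, 6 of the 10 growth brake genes were lower with IL-27, 4 were neither and 0 were higher. The 6 lower genes were Sesn1, Klf2, Ddit4, Txnip, Foxo3 and Ccng2, and nothing is read from their number beside the 7.36% of all genes, since the genes were chosen from this contrast. As deposited, differences ran from -2.68 for Sesn1 to 0.53 for Sesn2, with a median of -1.12. All 10 genes lay above the olfactory limit with vehicle, and 8 did with IL-27. The exceptions were Sesn1 and Ccng2. Ccng2 stood just inside the size rule at -1.04 (-0.91 against the olfactory limit) and Sesn3 just outside it at -0.87. In bulk samples such as these, fewer cells of a type and less RNA per cell cannot be told apart.

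**Figure D1:**
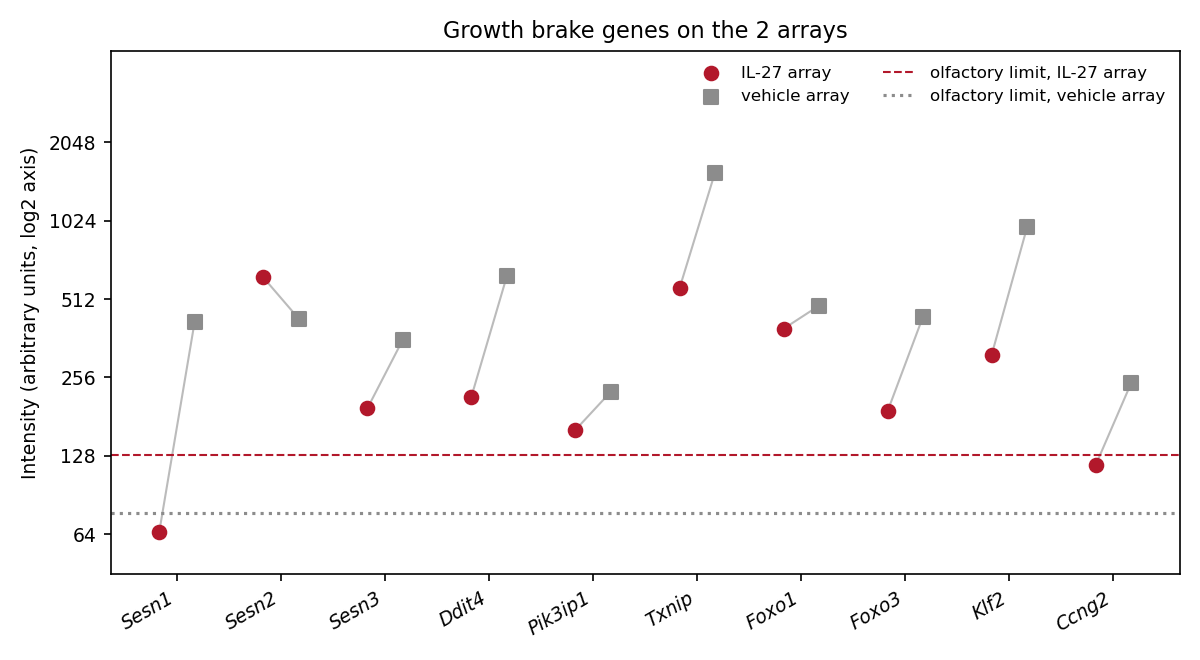
Intensity (log2 axis, arbitrary units) of the 10 growth brake genes on the IL-27 array (red circles) and the vehicle array (grey squares), 1 array each, with the olfactory limit of each array as a line. Sesn2 was the gene with the brighter IL-27 value, and Sesn1 and Ccng2 were at 65.4 and 118 with IL-27, under the limit of 129.

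The Sestrins went apart from each other. Sesn1 had an intensity of 65.4 on the IL-27 array and 419 on the vehicle array, which is at least 3.23-fold lower (a difference of -2.68 as deposited and -1.69 against the olfactory limit). Sesn2 had 620 on the IL-27 array and 431 on the vehicle array, 1.44-fold higher. Sesn3 had 195 on the IL-27 array and 357 on the vehicle array, 1.83-fold lower. Sesn1 with IL-27 thus lay among the values of genes not expected in DCs, whereas Sesn2 and Sesn3 stayed clear of them on both arrays. Of the 1000 genes nearest in level to Sesn1, 1% had a difference as low as its bound of -1.69. Among those nearest to Sesn3, 29.3% were as low, while among those nearest to Sesn2 4.80% were as high. The median of those neighbours was -0.44, -0.57 and -0.51 for Sesn1, Sesn3 and Sesn2. The difference of Sesn2 lay at least 2.22 above that of Sesn1 on the log2 scale, taking Sesn1 at its bound, and Sesn3 minus Sesn2 was -1.40.

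All 10 genes had promoter windows in RefSeq (build GRCm38.p6), each holding 250 bases before the transcript start and 50 from it on, and Sesn1 had 2 of them, which gave 11 windows. Windows were searched on both strands for 4 motifs. GTAAACA is bound by FOXO proteins, and TGATGNAA is an amino acid response element bound by ATF4. A carbohydrate response element bound by MondoA and ChREBP is CACGNG repeated with 5 bases between. The MEF2 motif was searched in a loose form, CTA and TAG with any 4 bases between. Matches of the 4 motifs did not overlap in the 11 windows of these genes. Of all 32851 windows of the same length, 3.65% held the FOXO motif and 0.0487% the carbohydrate response element. The amino acid response element was held by 3.97% and the loose form of the MEF2 motif by 3.69%. The Sestrins that differed in direction are shown first, with matches in capitals. The first window of Sesn1 (chr10:41810324-41810623, plus strand) held the FOXO motif on the reverse strand at positions 22 to 28 after the start base, and its second window and that of Sesn2 (chr4:132510407-132510706, minus strand) held none of the 4.
Sesn1: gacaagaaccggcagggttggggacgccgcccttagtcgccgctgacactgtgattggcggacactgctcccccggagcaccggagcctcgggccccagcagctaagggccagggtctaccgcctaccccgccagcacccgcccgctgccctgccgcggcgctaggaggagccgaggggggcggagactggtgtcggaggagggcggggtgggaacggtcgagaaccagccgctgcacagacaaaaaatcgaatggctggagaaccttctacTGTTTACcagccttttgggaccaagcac
Sesn2: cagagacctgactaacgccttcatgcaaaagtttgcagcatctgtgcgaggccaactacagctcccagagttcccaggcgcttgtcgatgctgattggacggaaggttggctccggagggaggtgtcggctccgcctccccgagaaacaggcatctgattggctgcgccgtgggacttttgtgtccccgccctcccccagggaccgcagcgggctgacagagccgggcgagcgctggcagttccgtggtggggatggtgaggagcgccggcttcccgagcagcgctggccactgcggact
A match describes the letters of the window, and binding was not measured.

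Among the brakes on mTORC1 and PI3K, Ddit4 was lower on the IL-27 array and Pik3ip1 was at the level of its neighbours. Ddit4, whose protein REDD1 is induced by hypoxia, glucocorticoids and stress, had an intensity of 216 on the IL-27 array and 626 on the vehicle array, 2.90-fold lower (a difference of -1.53). As low a difference was seen in 4.60% of the 1000 genes nearest in level, whose median was -0.55. Pik3ip1 had 161 on the IL-27 array and 226 on the vehicle array, 1.40-fold lower (-0.49). That difference was -0.003 from the median of its neighbours (-0.48), so Pik3ip1 did not stand out at its level.

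The machinery these brakes act on was mostly within 2-fold. Of 37 measured genes of mTORC1, its GTPases and the amino acid sensing complexes, 35 reached the level minimum, of which 5 were lower, 0 were higher and 30 were neither, with a median difference of -0.31 that turned to 0.01 with the level trend removed. Slc38a9, the lysosomal arginine sensor, had 178 on the IL-27 array and 545 on the vehicle array, 3.06-fold lower. Lamtor4 and Lamtor1, subunits of the Ragulator scaffold, were 2.19-fold and 2.06-fold lower, and Rraga, a Rag GTPase, at least 2.01-fold lower. Tsc2, through which REDD1 acts, was 2.05-fold lower, while its partner Tsc1 differed by 0.07 (-0.03 with median centring) and Mtor by -0.43 (0.01 with the level trend removed). Under quantile normalization or with the trend removed, 1 of these genes was lower, Slc38a9, and 1 was higher, Eif4ebp1, the translation repressor that mTORC1 inactivates, which differed by 0.82 as deposited.

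PI3K and AKT genes held differences in both directions. Of 21 measured genes, 20 reached the level minimum, of which 6 were lower, 1 was higher and 13 were neither, with a median of -0.28 that turned to 0.02 with the level trend removed. The leukocyte catalytic subunits Pik3cg (364 on the IL-27 array and 1130 on the vehicle array) and Pik3cd (303 on the IL-27 array and 928 on the vehicle array) were 3.11-fold and 3.06-fold lower. Sgk3, a kinase related to AKT, was 2.24-fold lower. Phlpp1, a phosphatase that removes an activating phosphate from AKT, was the higher gene at 2.78-fold, with 870 on the IL-27 array and 313 on the vehicle array. With the level trend removed the lower genes were Pik3cg and Pik3cd, and Phlpp1 was still higher.

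Txnip, the arrestin-like protein that binds thioredoxin and restrains glucose uptake, was lower on the IL-27 array, and Arrdc4 was not. Txnip had an intensity of 564 on the IL-27 array and 1563 on the vehicle array, 2.77-fold lower (-1.47), against a median of -0.34 among its neighbours in level, of which 4.50% were as low. Its promoter window (chr3:96557707-96558006, plus strand) was the one among the 11 that held the carbohydrate response element, at positions -85 to -69, and it also held the FOXO motif at positions -121 to -115. Both are in capitals, the FOXO motif first.
Txnip: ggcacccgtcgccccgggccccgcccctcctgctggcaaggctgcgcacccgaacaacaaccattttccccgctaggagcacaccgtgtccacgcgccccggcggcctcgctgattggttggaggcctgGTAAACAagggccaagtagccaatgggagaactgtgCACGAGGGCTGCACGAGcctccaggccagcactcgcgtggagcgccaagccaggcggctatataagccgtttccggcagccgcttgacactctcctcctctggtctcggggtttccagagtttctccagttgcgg
Arrdc4, the other arrestin gene known to be driven by MondoA, had 303 on the IL-27 array and 367 on the vehicle array, a difference of -0.28 that turned to 0.07 with quantile normalization and 0.17 with the level trend removed. The difference of Arrdc4 lay 1.20 above that of Txnip as deposited and 1.34 above it with the level trend removed. Arrdc3, a relative that acts on receptor trafficking, was 3.30-fold lower (149 on the IL-27 array and 490 on the vehicle array).

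Of 13 genes of the MondoA factors and the thioredoxin system, 11 reached the level minimum, of which 1 was lower, 0 were higher and 10 were neither, with a median of -0.29. The lower gene was Slc2a3, the glucose transporter GLUT3, at least 2.10-fold lower. Txnrd1, thioredoxin reductase, had 824 on the IL-27 array and 460 on the vehicle array, a difference of 0.84 that passed the size rule with quantile normalization (1.11) and with the level trend removed (1.21). Nlrp3, the inflammasome sensor to which TXNIP can bind, and Txn2, mitochondrial thioredoxin, differed by -0.79 and -0.71.

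Of the FOXO transcription factors, Foxo3 was lower and Foxo1 lay above the median of genes of its level. Foxo3 had an intensity of 190 on the IL-27 array and 439 on the vehicle array, 2.31-fold lower (-1.20), and 11.9% of its neighbours in level were as low. Foxo1 had 394 on the IL-27 array and 483 on the vehicle array, a difference of -0.29 that turned to 0.04 with quantile normalization and to 0.13 with the level trend removed. The neighbours of Foxo1 had a median of -0.54, and 70.1% of them were as low or lower. The difference of Foxo1 lay 0.91 above that of Foxo3 as deposited and 0.90 above it with the level trend removed. Foxo4 had 86.0 on the IL-27 array, below the olfactory limit, and 101 on the vehicle array.

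Known FOXO targets outside the 10 genes did not go one way. Of 32 measured, 27 reached the level minimum, of which 4 were lower, 3 were higher and 20 were neither, with a median of -0.11 that turned to 0.03 with the level trend removed. Il7r, the IL-7 receptor chain, was 3.50-fold higher (583 on the IL-27 array and 167 on the vehicle array), and Bcl2l11, which encodes the death protein BIM, was 2.54-fold higher (738 on the IL-27 array and 291 on the vehicle array). On the other side, Insr, the insulin receptor, was 2.46-fold lower and Rbl2, the pocket protein p130, was 2.41-fold lower. The other targets past the size rule were Gadd45b, a stress gene, at 1.13, Cat, catalase, at -1.14, and Pink1, a mitochondrial kinase, at least 2.13-fold lower. The cell cycle inhibitor Cdkn1b had 573 on the IL-27 array and 1073 on the vehicle array, a difference of -0.91. With the level trend removed 3 targets were higher and 0 were lower, with Insr at -0.91 and Rbl2 at -0.87, short of the size rule.

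Klf2, a factor that keeps T cells resting and restrains inflammatory genes in myeloid cells, was the second lowest of the 10 genes. It had an intensity of 313 on the IL-27 array and 967 on the vehicle array, 3.08-fold lower (-1.62), and 3.70% of its neighbours in level, whose median was -0.48, were as low. Its promoter window (chr8:72318812-72319111, plus strand) held the MEF2 motif at positions -118 to -109, in capitals.
Klf2: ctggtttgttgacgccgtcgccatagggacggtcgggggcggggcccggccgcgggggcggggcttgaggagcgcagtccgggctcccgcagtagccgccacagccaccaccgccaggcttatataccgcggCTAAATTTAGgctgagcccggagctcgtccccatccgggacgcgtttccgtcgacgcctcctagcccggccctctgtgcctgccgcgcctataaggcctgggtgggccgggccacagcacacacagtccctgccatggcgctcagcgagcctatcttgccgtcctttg
Ccng2, an atypical cyclin that slows the cell cycle, had 118 on the IL-27 array and 244 on the vehicle array, at least 1.88-fold lower, and 18.5% of its neighbours were as low as that bound of -0.91. Its relatives Ccng1 and Ccni and the other KLF genes listed, stayed within 2-fold as deposited. Klf4, the closest relative of Klf2 in function, had 271 on the IL-27 array and 512 on the vehicle array (-0.92, or -1.01 with median centring), and Klf7 differed by -0.74. Arrdc1, a relative of Txnip, differed by -0.77. Of 18 close relatives of the 10 genes, 15 reached the level minimum, of which Arrdc3 was lower, 0 were higher and 14 were neither, with a median of -0.39.

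Most genes listed for quiescence stayed within 2-fold, and most listed cell cycle genes were lower with IL-27. Which of the listed genes mark resting or dividing DCs was not tested. Of 24 quiescence genes, 23 reached the level minimum, of which 5 were lower, 0 were higher and 18 were neither, with a median of -0.37. Over the 23 the median was -0.35, beside -0.34 over all genes that reached the level minimum. Rbl1, the pocket protein p107, was 3.87-fold lower, Btg2, an antiproliferative gene, 2.86-fold (1170 on the IL-27 array and 3348 on the vehicle array) and the clock gene Per1 2.79-fold. Rbl2 and Cdkn2c, the inhibitor p18, were the others, with Cdkn2c at least 1.81-fold lower. Of 28 cell cycle genes, 27 reached the level minimum, of which 18 were lower, 0 were higher and 9 were neither, with a median of -1.28. On the IL-27 array 12 of the 28 lay at or below the olfactory limit. With that limit in place of the dimmer value 16 were lower. Ccna2, cyclin A2, had 130 on the IL-27 array and 488 on the vehicle array, 3.77-fold lower, and Ccnd1, cyclin D1, had 717 on the IL-27 array and 2312 on the vehicle array, 3.22-fold lower. Mcm7, a subunit of the replicative helicase, was 3.25-fold lower and Bub1, a spindle checkpoint kinase, at least 2.44-fold. With the level trend removed 12 cell cycle genes were lower and the median was -0.90. As deposited, the growth brake genes counted as lower stood beside lower levels of most cell cycle genes. A link between these sets of genes was not tested.

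Sesn2 and Ddit4 are both known targets of ATF4, the factor of the amino acid and stress response, and they differed in opposite directions. The difference of Sesn2 lay 2.06 above that of Ddit4 as deposited. Of the other 27 measured genes of the ATF4 list, 23 reached the level minimum, of which 6 were higher, 1 was lower and 16 were neither, with a median of 0.58, or 0.89 with the level trend removed, where 11 were higher. Asparagine synthetase, Asns, had 550 on the IL-27 array and 76.6 on the vehicle array, at least 7.12-fold higher. Slc7a11, the cystine transporter, was 6.23-fold higher, Chac1, which degrades glutathione, was 4.48-fold and Slc7a5, the leucine transporter, 3.41-fold (1651 on the IL-27 array and 484 on the vehicle array). Atf3, a stress factor, was the lower gene at -1.15 (-0.996 with the level trend removed). Trib3 and Ddit3, further targets, differed by 0.76 and 0.25. Sesn2 at 0.53 lay near the median of this list and Ddit4 at -1.53 below all of its other measured members.

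Sesn1 and Sesn2 are also known as p53 targets, and they differed in opposite directions. Of 17 other measured p53 targets, 13 reached the level minimum, of which 1 was lower, 0 were higher and 12 were neither. The median was -0.14 over the 17 and -0.41 over the 13, and 4 more were not analysed here. Btg2 was the lower gene. Trp53inp1 and Pmaip1, which act in cell death, differed by -0.75 and -0.69, and Ddb2, a DNA repair gene, was at least 1.35-fold lower.

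**Figure D2:**
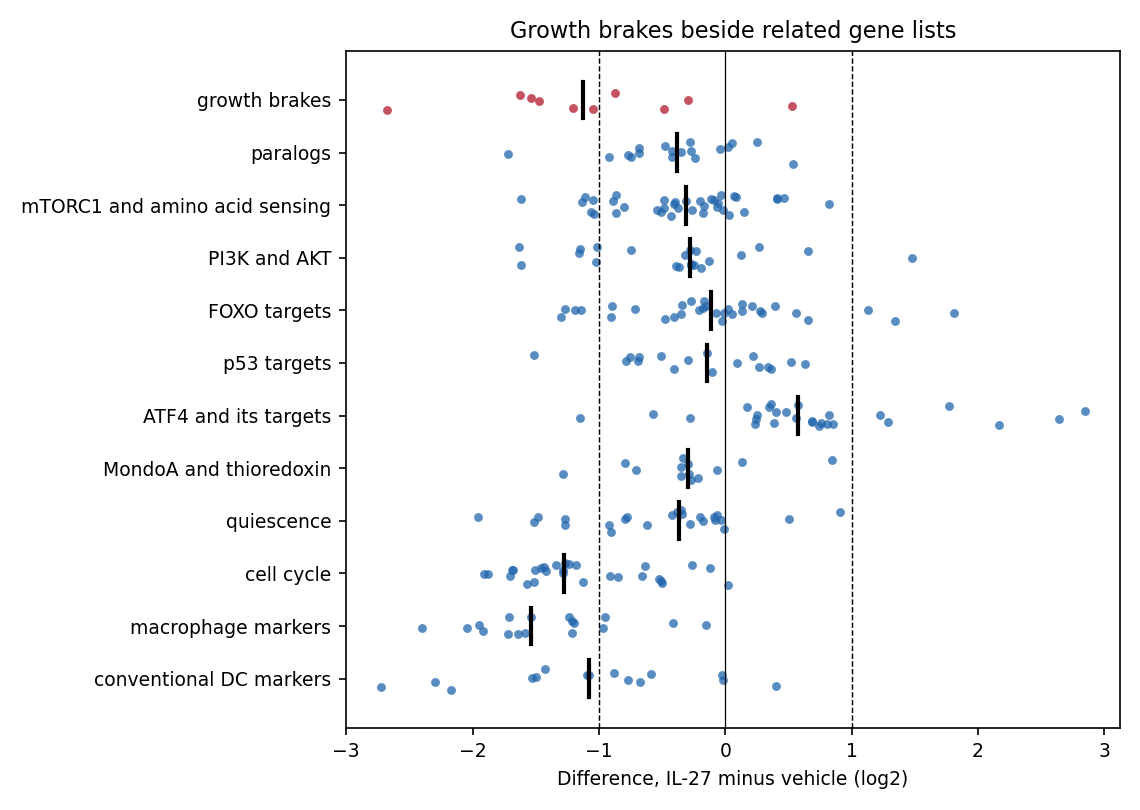
Difference in log2 intensity (IL-27 minus vehicle) of each measured gene, 1 point per gene, for the growth brakes (red) and related lists and markers (blue), with list medians as black bars and 2-fold as dashed lines. Growth brake genes had a median of -1.12, ATF4 and its targets 0.58, cell cycle genes -1.28 and macrophage markers -1.54.

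The lower differences depended in part on the scaling of the arrays. With the level trend removed, Sesn1 (-2.43), Klf2 (-1.24), Txnip (-1.18) and Ddit4 (-1.10) were still lower by the size rule, beside 3.73% of all genes lower and 1.32% higher, and Foxo3 (-0.77) and Ccng2 (-0.78) were short of it. Quantile normalization gave the same split, with Foxo3 at -0.89 and Ccng2 at -0.88, beside 4.55% of all genes lower and 1.18% higher. The count of lower members was 6 with median centring (9.38% of all genes), with no level filter (7.42%) and with probe sets of a gene averaged (7.25%). It was 5 with an offset of 16 (6.11%), with both arrays at the level minimum (5.97%) and with the olfactory limit in place of the dimmer value (5.67%), and 7 by a 1.5-fold rule (18.8%). Sesn2 came closest to a 2-fold higher value with the level trend removed, at 0.92. Relative to the median of the neighbours in level, 8 of the 10 genes were lower as deposited (Pik3ip1 by no more than the -0.003 given), with Sesn2 1.03 and Foxo1 0.25 above it.

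**Figure D3:**
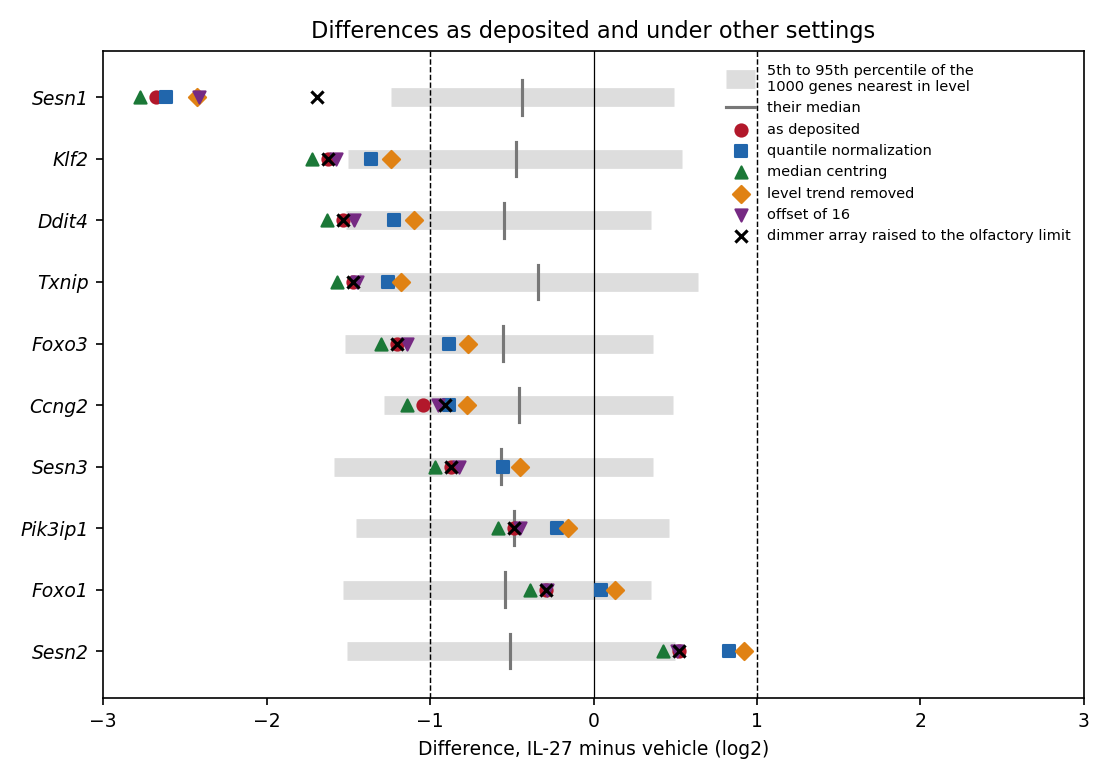
Difference in log2 intensity (IL-27 minus vehicle) of the 10 genes as deposited and under 5 other settings, with the 5th to 95th percentile and the median of the 1000 genes nearest in level as grey bars and ticks, and 2-fold as dashed lines. The grey bars and ticks are as deposited and were not computed anew for the other settings. Sesn1 lay left of that bar under all 6 settings shown, and Foxo1 had points on both sides of 0.

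**Figure D4:**
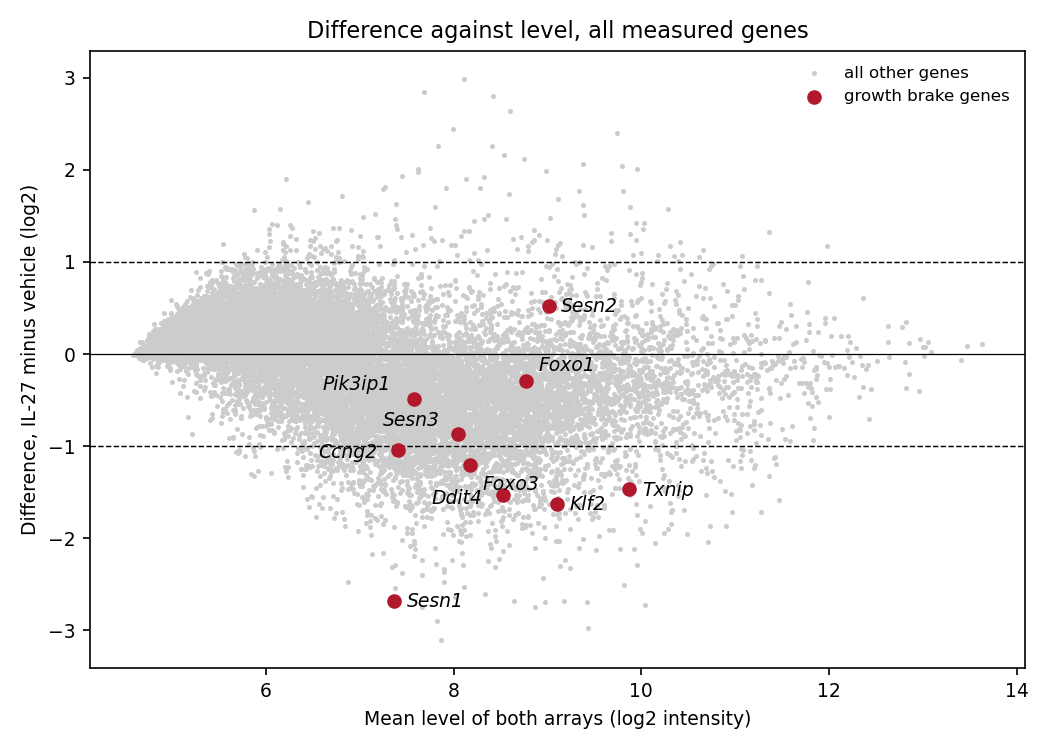
Difference in log2 intensity (IL-27 minus vehicle) against the mean log2 level of both arrays, for all 19935 genes (grey) and the 10 growth brake genes (red), with 2-fold as dashed lines. The grey cloud lies below 0 at the levels of the 10 genes, whose neighbours had medians from -0.57 to -0.34.

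As deposited, most macrophage and conventional DC markers were lower alongside these genes. T cell, NK cell and neutrophil markers had medians of 0.11, 0.12 and 0.30. Each of these 3 medians was 0 with the olfactory limit in place of the dimmer value. Over the markers that reached the level minimum they were 0.28, -0.13 and -1.08. Among markers of macrophages and monocytes, 13 of 17 were lower and 0 were higher, with a median of -1.54 and a summed intensity of 19511 on the IL-27 array and 42675 on the vehicle array. The others were Hmox1 (-0.16), Lyz2 (-0.42), Spic (-0.95) and Marco (-0.97). Of 15 conventional DC markers, 8 were lower and none was higher. Their median was -1.08, with sums of 18916 on the IL-27 array and 31901 on the vehicle array. With IL-27, 14 lay above the olfactory limit, all but Clec4a4, and with vehicle all 15 did, and 14 had a difference below 0. Cd209a, Kmo and Xcr1 differed by -2.72, -2.30 and -1.50, Flt3 and Itgax by -1.08 and -0.88, and Zbtb46 had a difference of -0.02 as deposited and 0.42 once the trend with level was removed. H2-Ab1 differed by -0.02, and Irf4 was the marker above 0, at 0.40 (0.77 with the level trend removed). Of 9 B cell markers, Cd22 and Ms4a1 were lower, with sums of 1456 on the IL-27 array and 2377 on the vehicle array. Sums for the 8 T cell markers were 726 on the IL-27 array and 662 on the vehicle array, and 7 of them lay at or below the olfactory limit on the IL-27 array and 4 on the vehicle array. NK cell markers, 10 in all, summed to 1100 on the IL-27 array and 1461 on the vehicle array, with Klrk1 and Klrd1 lower. Those 2 carried the lower sum, with Klrd1 at 269 on the IL-27 array and 555 on the vehicle array and Klrk1 at 135 and 287. Of the 10, 7 lay at or below the olfactory limit on the IL-27 array and 5 on the vehicle array. Of 10 neutrophil markers, 9 lay at or below the olfactory limit on the IL-27 array and 6 on the vehicle array. Csf3r and Cxcr2 were lower, though the vehicle value of Cxcr2, 117, did not exceed the limit of the IL-27 array, and the 10 markers summed to 741 on the IL-27 array and 842 on the vehicle array. Of 7 erythroid and endothelial markers Pecam1 was lower, with sums of 574 on the IL-27 array and 986 on the vehicle array. Pecam1, at 153 on the IL-27 array and 545 on the vehicle array, carried that lower sum. Of the 7, 6 lay at or below the olfactory limit on the IL-27 array and 3 on the vehicle array. No marker was listed at 0 on either array. The part of these cells in the differences of the 10 genes was not tested.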

How the data were processed

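The deposited table holds an intensity on a linear scale for each of 28815 probe sets on each array. Per the labels, samples were labelled with biotin with an Affymetrix kit, and mm8 was the genome build, per the submitters' processing notes. How background, probe summaries and scaling were handled was not given in the sources used here. Values all exceeded 0, so log2 needed no pseudocount. Median intensities were 98.9 (IL-27) and 92.4 (vehicle). Precision is limited by having 1 array per group.

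Genes came from GEO's platform annotation, where 21780 probe sets had 1 gene, 1605 several and 5430 were not listed. Gene IDs of 21689 matched RefSeq (GRCm38.p6), and 0 symbols changed. A gene with several probe sets was read from the one with the highest mean. The members and lists were chosen with earlier results of these data known. Named genes were all members, the 4 largest absolute differences per related list over the level minimum, and Arrdc4, Foxo4, Cdkn1b, Trib3, Ddit3, Mtor, Tsc1 and Tsc2. Atf3, Cat, Cdkn2c, Eif4ebp1, Gadd45b, Pink1, Ccng1, Ccni and the markers were named after their values were seen. Members were not counted in the related lists. Alternatives were quantile normalization, median centring, lowess removal of the level trend (span 0.3), an offset of 16, other level filters, the mean of probe sets, a 1.5-fold rule and the olfactory limit. The size rule, quantile normalization, lowess and the choice of neighbours in level were tried on simulated data, and the other steps were not. Where the simulation held a trend with level, only lowess had to recover the shifts. Software was Python 3.11.15, pandas 2.3.3 and statsmodels 0.14.6.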

Additional observations from a re-analysis of the deposited data

How the results depend on the processing

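No paired analysis was possible because each group had 1 array. The number of lower members, 6 as deposited, lay between 4 and 7 under the other settings, and the 1.5-fold rule added Sesn3. Foxo3 and Ccng2 left it with quantile normalization and with the level trend removed. Ccng2 was short of the size rule with an offset of 16 (-0.95) and with the olfactory limit (-0.91), and Sesn1 left the count when both arrays had to reach the level minimum. Over all genes, the 1468 lower were 907 with quantile normalization, 744 with the level trend removed and 3753 by the 1.5-fold rule. The 169 higher genes were 264 with the level trend removed, 97 with both arrays at the level minimum and 653 by the 1.5-fold rule. The cause of these shifts was not tested, beyond the looser or stricter rule itself. Median differences of lists under other scalings were computed after seeing the data, and those of the mTORC1, PI3K and FOXO target lists changed sign with the level trend removed. With 1 array per group, no difference can be told from array effects, whether near the median of its neighbours in level or far from it.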

Other observations

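In the RefSeq order of genes on chromosome 10, Sesn1 and Foxo3 are neighbours with 1 protein-coding gene, Armc2, between them. Armc2 had an intensity of 105 on the IL-27 array, below the olfactory limit of 129, and 76.4 on the vehicle array, below its limit of 77.3. On the far side of Sesn1, Cep57l1 had 57.6 on the IL-27 array and 102 on the vehicle array. Its difference was -0.82 as deposited, -1.03 with the level trend removed and 0 against the olfactory limit. The next gene there, Ccdc162, had 76.8 on the IL-27 array and 64.5 on the vehicle array, under both limits. On the far side of Foxo3, Afg1l had 65.1 on the IL-27 array and 89.0 on the vehicle array, and the next gene, Snx3, had 1224 on the IL-27 array and 1291 on the vehicle array, a difference of -0.08 (0.08 with quantile normalization and 0.17 with the level trend removed). These neighbours were looked up after the values of Sesn1 and Foxo3 were seen.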
